A study of Mus musculus with 2 samples.

Results

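The miR-15/16 family is described here by 6 microRNA genes at 3 loci of the mouse genome, taken by gene symbol: the pairs Mir15a with Mir16-1 and Mir15b with Mir16-2, and Mir195a and Mir497b on chromosome 11. All 6 were found among the 1973 microRNA genes of each deposited count table. The study sequenced RNA under 30 bases from the newborn midbrain in 2 libraries, from pup 3 and from pup 1. Each library came from the total RNA of a single dissected midbrain of the B6NCrl strain at postnatal day 0, with no treatment, engineered allele or second tissue named. Both pups carry the same donor identifier in the labels, sex was not collected, and they are biological replicates 2 and 1 of 1 group. Values of pup 3 and pup 1 therefore compare 2 animals, not conditions, and the p-values below measure the difference between these libraries only.

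A microRNA gene is transcribed as a hairpin, from which a 5p arm and a 3p arm of about the length of the reads are cut. One arm enters the silencing complex and pairs with messenger RNAs mainly through its seed, the bases from position 2 to position 8. Members of the miR-15/16 family share a seed and repress messages for cyclins and other regulators of cell division, as well as the survival factor Bcl2. In humans, the locus with miR-15a and miR-16-1 is deleted in many cases of chronic lymphocytic leukaemia. In the mouse heart, miR-195 is known for promoting exit from the cell cycle after birth.

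The 5p arms show what joins these hairpins and what separates them. They are given 5′ to 3′ from RefSeq annotation on GRCm38.p6, with the seed in capitals. All 6 symbols were matched in that table.
miR-15a-5p of Mir15a (chr14:61632075-61632096, minus strand): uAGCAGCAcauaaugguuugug
miR-15b-5p of Mir15b (chr3:69009775-69009796, plus strand): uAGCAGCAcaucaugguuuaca
miR-16-5p of Mir16-1 (chr14:61631936-61631957, minus strand): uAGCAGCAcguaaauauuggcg
miR-16-5p of Mir16-2 (chr3:69009918-69009939, plus strand): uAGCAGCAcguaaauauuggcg
miR-195a-5p of Mir195a (chr11:70235062-70235082, plus strand): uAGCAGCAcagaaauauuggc
miR-497a-5p of Mir497 (chr11:70234730-70234751, plus strand): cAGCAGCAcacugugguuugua
miR-497b of Mir497b (chr11:70234763-70234786, minus strand): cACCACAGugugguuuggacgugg

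The seed AGCAGCA was identical in the 5p arms of Mir15a, Mir15b, Mir16-1, Mir16-2, Mir195a and Mir497. Outside the seed the arms differed from each other. With positions counted from the 5′ end, miR-15b-5p differed from miR-15a-5p at 4 of 22 positions (A12C, G20A, U21C and G22A), and miR-195a-5p differed from miR-16-5p at 2 of 21 (G10A and U11G). By contrast miR-16-5p differed from miR-15a-5p at 6 of 22 positions and from miR-497a-5p at 11 of 22, while miR-497a-5p differed from miR-15a-5p at 5 of 22.

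Mir497b is annotated on the minus strand, and the seed of its own mature arm, ACCACAG, is another one. Its 125 bases contain the whole of Mir497, which lies on the plus strand of chromosome 11 from 70234717 to 70234800 and has no row of its own in the count tables. The reads counted on the strand opposite to Mir497b therefore lie on the strand of Mir497. These opposite-strand counts, 2368 in pup 3 and 1686 in pup 1, are the values used for Mir497b throughout, against 0 and 1 on its own strand. For the remaining 5 hairpins the own-strand counts were used, and their opposite-strand counts were 0 in both pups.

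The same 5p sequence in Mir16-1 and Mir16-2 limits what the counts of these hairpins mean. Reads that map to several places were counted in no gene, and the hairpins share an unbroken run of 23 bases that holds the whole miR-16-5p arm: uagcagcacguaaauauuggcgu. A read that is exactly miR-16-5p matches both places, so it enters the count of neither, and the values of Mir16-1 and Mir16-2 below are not the level of miR-16. Only their 3p arms, or reads running past that run, can be assigned to a single hairpin, and the 3p arms are shown here because they differ, with bases 2 to 8 in capitals.
miR-16-1-3p of Mir16-1 (chr14:61631894-61631915, minus strand): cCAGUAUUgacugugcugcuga
miR-16-2-3p of Mir16-2 (chr3:69009960-69009981, plus strand): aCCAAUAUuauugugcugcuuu

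No other arm of the members was found in a second hairpin among the 2202 microRNA transcripts of GENCODE M21. The longest run that Mir195a shared with another hairpin was 16 bases, with Mir195b, that of Mir15a was 13 bases, and those of Mir15b and Mir497 were 12 bases. The whole genome was not searched. How many of the 2937457 reads of pup 3 and 2111487 reads of pup 1 that mapped to several places were miR-16-5p was not tested.

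**Figure D1:**
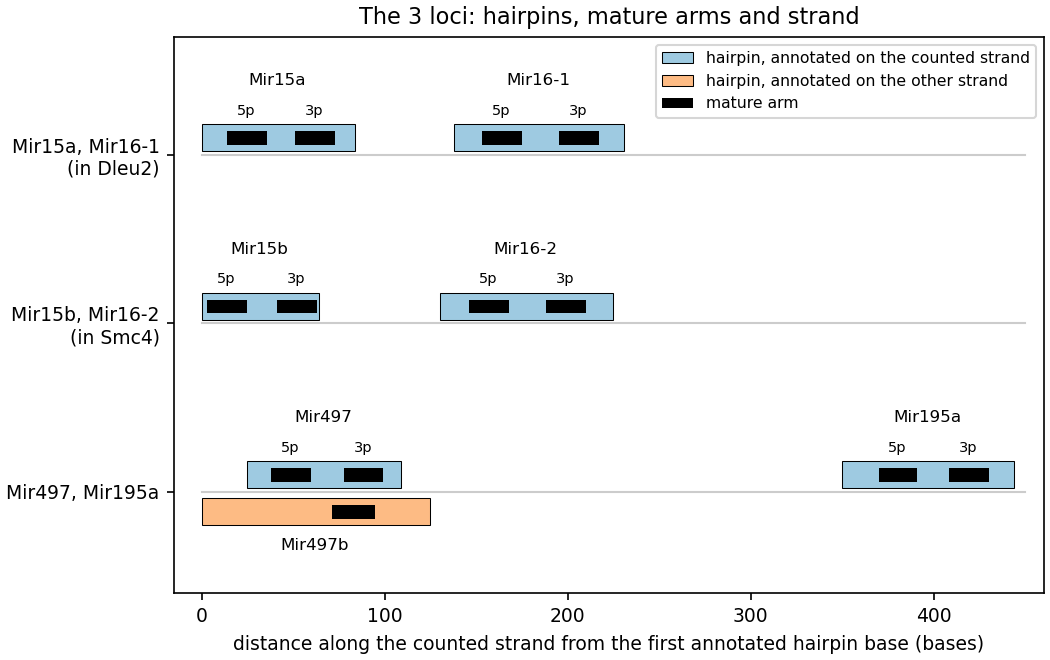
Map of the 3 loci, with the distance in bases along the counted strand from the first annotated hairpin base on the horizontal axis and 1 locus per line; boxes are hairpins and black bars mature arms. Mir497b is drawn below its line because it is annotated on the other strand, and its 125 bases contain the whole of Mir497.

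By position on GRCm38, the build also called mm10, Mir15a (ENSMUSG00000093007.1) lies on chromosome 14 from 61632027 to 61632110 and Mir16-1 (ENSMUSG00000092995.1) from 61631880 to 61631972, 54 bases apart on the minus strand. Both lie within the noncoding gene Dleu2, Mir15a in an intron and Mir16-1 meeting an annotated Dleu2 exon. Mir15b (ENSMUSG00000065580.1) lies on chromosome 3 from 69009772 to 69009835 and Mir16-2 (ENSMUSG00000065606.1) from 69009902 to 69009996, 66 bases apart on the plus strand. Both are intronic in Smc4, which encodes a subunit of the condensin complex that compacts chromosomes for division. Mir195a (ENSMUSG00000065411.2) lies on chromosome 11 from 70235042 to 70235135 on the plus strand, 241 bases after Mir497, and Mir497b (ENSMUSG00000070109.2) spans 70234692 to 70234816. No host gene was found in the annotation for the chromosome 11 hairpins. The Mir15b identifier has another version number in that annotation than in the count tables, so its span there may differ from the one counted.

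The libraries held 3197645 counts on genes in pup 3 and 2338798 in pup 1, and 39.8% and 38.7% of all reads mapped to several places. Levels are given as CPM, counts per 1000000 counts on genes. As a check of the tissue, neuron-enriched microRNAs were counted, with 10 counts in both pups as the minimum for a gene to be called detected. Of the 10 with a row, 7 were detected, and Mir9-2, Mir124a-2 and Mir124a-3 were not. The list summed to 49044 CPM in pup 3, against 44048 CPM in pup 1. Mir137 alone held 26493 CPM of this in pup 3 and 22066 CPM in pup 1. The Hox-linked microRNAs, known from hindbrain and spinal cord, summed to 889 CPM in pup 3, against 1074 CPM in pup 1. Of these, 2 of 5 were detected (Mir10a and Mir10b) and Mir196a-1 was at 0. Several undetected genes of both lists are numbered copies, such as Mir196a-1 and Mir196a-2. Reads that match several copies are counted in no gene, so a low count there need not be a low level. In whole tissue, fewer cells of a type and less RNA per cell cannot be told apart.

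All 6 hairpins were detected, and together they held 0.904% of the counts in pup 3 (exact Clopper-Pearson 95% interval 0.893 to 0.914%), against 0.889% in pup 1 (0.877 to 0.902%). The mean share was 0.897% ± 0.0101 (SD, n = 2). Such intervals cover counting error only. By mean level the hairpins took ranks from 62 for Mir15a to 144 for Mir16-2 among the 1973 genes.

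Mir15a, the first hairpin of the Dleu2 pair, was the highest of the 6. It had 10243 counts in pup 3 and 7479 in pup 1, or 3203 CPM (3142 to 3266) in pup 3, against 3198 CPM (3126 to 3271) in pup 1. The pups were almost equal, at 3201 ± 3.89 CPM (SD, n = 2). Mir16-1, from the same host gene, had 7602 counts in pup 3 and 5569 in pup 1. Its level was 2377 CPM in pup 3, against 2381 CPM in pup 1, a mean of 2379 ± 2.66 CPM (SD, n = 2) that leaves out exact miR-16-5p reads.

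Mir15b, the first hairpin of the Smc4 pair, had 4379 counts in pup 3 and 2829 in pup 1. Its level was 1369 CPM (1329 to 1411) in pup 3, against 1210 CPM (1165 to 1255) in pup 1, a mean of 1290 ± 113 CPM (SD, n = 2), the widest spread between pups among the 6. Mir16-2, its neighbour, was the lowest of the 6. It had 1570 counts in pup 3 and 1095 in pup 1, or 491 CPM (467 to 516) in pup 3, against 468 CPM (441 to 497) in pup 1, a mean of 480 ± 16.1 CPM (SD, n = 2).

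On chromosome 11, Mir195a had 2737 counts in pup 3 and 2144 in pup 1. Its level was 856 CPM (824 to 889) in pup 3, against 917 CPM (878 to 956) in pup 1, a mean of 886 ± 43.0 CPM (SD, n = 2). The reads opposite Mir497b, on the strand of Mir497, came to 741 CPM (711 to 771) in pup 3, against 721 CPM (687 to 756) in pup 1. Their mean was 731 ± 13.9 CPM (SD, n = 2).

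**Figure D2:**
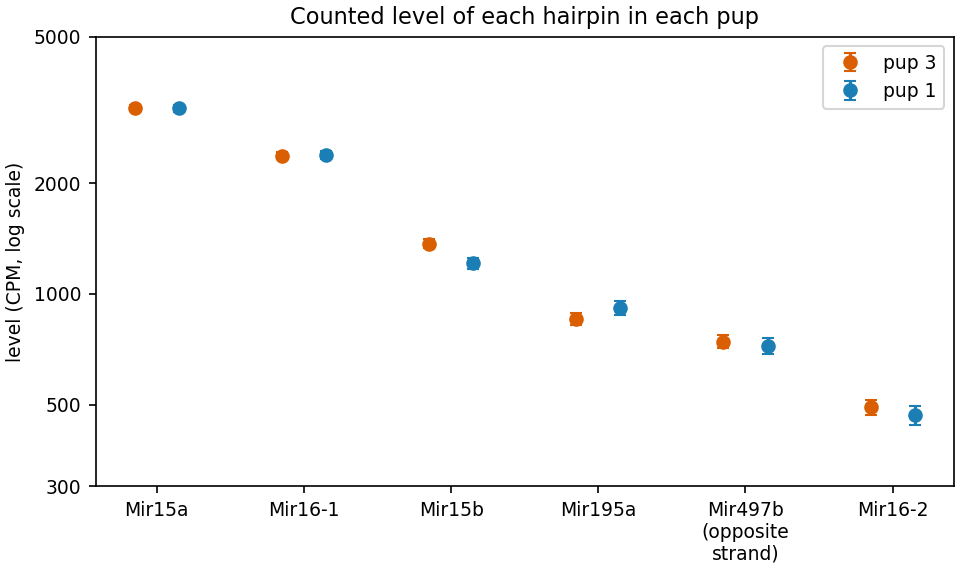
Level of each hairpin in CPM on a log axis, with pup 3 in orange left of pup 1 in blue; error bars are exact 95% counting intervals, and hairpins run from the highest to the lowest mean. The levels fall from 3203 CPM (pup 3) and 3198 CPM (pup 1) for Mir15a to 491 CPM (pup 3) and 468 CPM (pup 1) for Mir16-2, and no pup of a hairpin reaches the level of the hairpin before it.

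The order of levels was Mir15a, Mir16-1, Mir15b, Mir195a, Mir497b and Mir16-2 in each pup. For none of the 5 neighbouring steps did the values of the pups overlap. The narrowest step was between Mir195a and Mir497b, where the lowest value of Mir195a was 856 CPM and the highest of Mir497b 741 CPM, a ratio of 1.16 in pup 3 and 1.27 in pup 1. The widest was between Mir16-1 and Mir15b, a ratio of 1.74 in pup 3 and 1.97 in pup 1. A small RNA read covers a mature arm and not the length of the hairpin, so levels were not divided by length. The order was the same when they were, with the length of Mir497b used for the reads opposite it. How readily each arm is captured in a library is known to differ between sequences and was not tested. The counts of Mir16-1 and Mir16-2 also leave out exact miR-16-5p reads. An order of counts therefore need not be an order of molecules.

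The shares within each pair do not depend on how the libraries are scaled. In the Dleu2 pair, Mir15a held 57.4% of the counts in pup 3 (exact interval 56.7 to 58.1%), against 57.3% in pup 1 (56.5 to 58.2%), so the split between Mir15a and Mir16-1 differed by 0.0807 percentage points between the pups. In the Smc4 pair, Mir15b held 73.6% in pup 3 (72.5 to 74.7%), against 72.1% in pup 1 (70.7 to 73.5%). On chromosome 11, Mir195a held 53.6% in pup 3 (52.2 to 55.0%), against 56.0% in pup 1 (54.4 to 57.6%). The intervals of the pups overlapped in all 3 pairs, which does not show that the shares were equal. Their differences were not tested.

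The counts that could be placed on the miR-16 hairpins were unequal, and they leave out reads of exactly the shared 5p arm. Mir16-1 took 82.9% of the counts of Mir16-1 and Mir16-2 in pup 3 (exact interval 82.1 to 83.6%), against 83.6% in pup 1 (82.7 to 84.5%), which puts it 4.84-fold above Mir16-2 in pup 3 and 5.09-fold in pup 1. Their partners differed in the same direction, with Mir15a above Mir15b by 2.34-fold in pup 3 and 2.64-fold in pup 1.

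Summed by locus, the Dleu2 pair held most of the family's counts, at 5581 CPM in pup 3, against 5579 CPM in pup 1, or 61.7% of the 6 hairpins' counts in pup 3 (61.2 to 62.3%) and 62.7% in pup 1 (62.1 to 63.4%). The Smc4 pair held 1860 CPM in pup 3, against 1678 CPM in pup 1, or 20.6% in pup 3 (20.1 to 21.1%), against 18.9% in pup 1 (18.3 to 19.4%). The chromosome 11 hairpins held 1596 CPM in pup 3, against 1638 CPM in pup 1, or 17.7% in pup 3 (17.2 to 18.1%), against 18.4% in pup 1 (17.9 to 18.9%). The Smc4 pair was the only locus of the 3 whose intervals did not overlap between the pups. Overlap of intervals is not a test of a difference, and the shares of the loci were not tested between the pups.

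**Figure D3:**
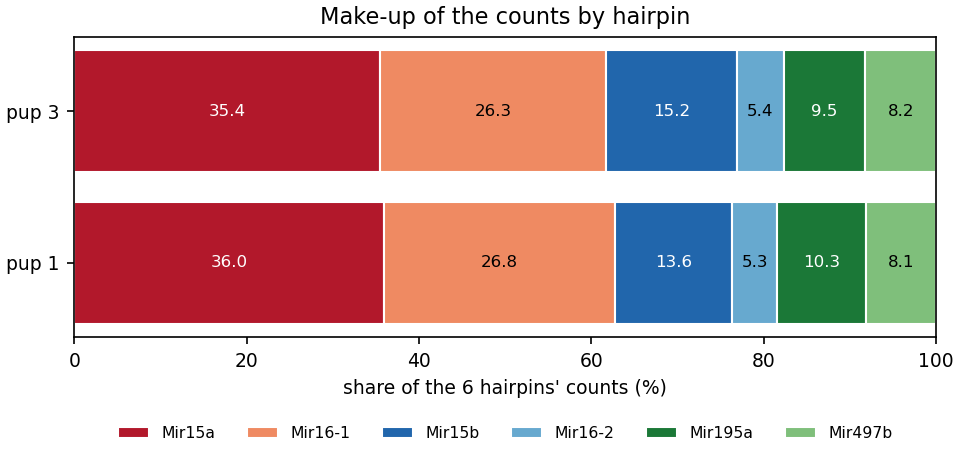
Share of the 6 hairpins' counts held by each hairpin in percent, with pup 3 above pup 1. Mir15a and Mir16-1 make up 61.7% of the bar of pup 3 and 62.7% of that of pup 1, and Mir15b takes 15.2% in pup 3 and 13.6% in pup 1.

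The pups were then compared hairpin by hairpin, as pup 3 over pup 1 with TMM scaling, which removes a general shift between libraries, with a prior count of 0.5. Each of the 287 genes whose mean count reached 50 was given a two-sided exact binomial test of its counts given the scaled totals, with Benjamini-Hochberg adjustment over all 287. An adjusted p under 0.05 was reached by 2 of the 6 hairpins, against 57.1% of all tested genes, so at this depth small differences pass for most genes.

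Mir15b was higher in pup 3, with a log2 ratio of 0.13 (1.09-fold, 95% counting interval 1.04 to 1.15) and an adjusted p of 0.000426 by the exact binomial test, as were 30.0% of tested genes. Mir195a was lower in pup 3, with a log2 ratio of -0.15 (0.903-fold, 0.853 to 0.956) and an adjusted p of 0.000974 by the same exact test, as were 27.2% of tested genes. Each of these hairpins had a neighbour that was not called. Mir16-2 had a log2 ratio of 0.02 (0.938 to 1.10-fold, exact binomial test, adjusted p = 0.828), and the reads opposite Mir497b had one of -0.01 (0.933 to 1.06-fold, exact binomial test, adjusted p = 0.909).

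The Dleu2 pair had log2 ratios of -0.05 for Mir15a (0.940 to 0.998-fold, exact binomial test, adjusted p = 0.0638) and -0.05 for Mir16-1 (0.933 to 1.00-fold, exact binomial test, adjusted p = 0.0808). With plain library totals the log2 ratio of Mir15a was 0.0025, that of Mir16-1 -0.0023 and that of the reads opposite Mir497b 0.039. None of these signs is firm. None of the 6 reached 2-fold with an adjusted p under 0.05, against 1.74% of all tested genes. An unadjusted p under 0.05 by the exact binomial test was reached by 4 of the 6, against 59.6% of the tested genes. The median absolute log2 ratio was 0.05 over the 6 hairpins and 0.15 over the 287 tested genes with TMM scaling. The order of Mir195a (0.15) and Mir15b (0.13) by size depends on the scaling, since with plain library totals the log2 ratios were -0.10 for Mir195a and 0.18 for Mir15b. The spread beyond counting error over all tested genes, as edgeR's common biological coefficient of variation, was 0.171.

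**Figure D4:**
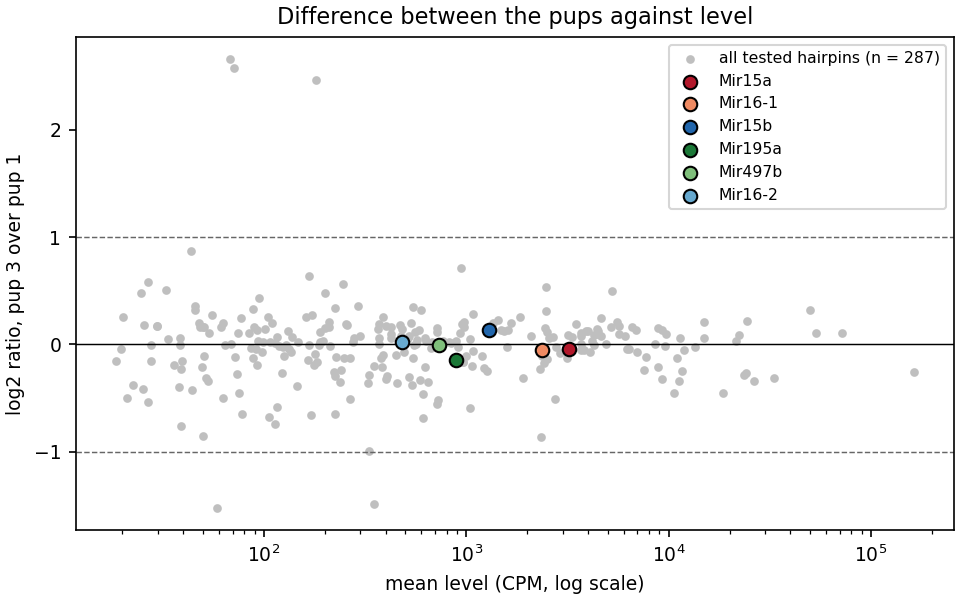
Log2 ratio of pup 3 over pup 1 against mean level in CPM (log axis) for the 287 tested hairpins in grey and the 6 hairpins in colour; dashed lines mark 2-fold. The 6 lie between -0.15 for Mir195a and 0.13 for Mir15b, while single hairpins elsewhere reach -1.52 and 2.66.

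Markers of other cells were measured in the same libraries. Endothelial Mir126a had 30073 CPM in pup 3, against 36162 CPM in pup 1 (log2 ratio -0.31), and the mural microRNAs Mir143 and Mir145a summed to 7118 CPM in pup 3, against 7208 CPM in pup 1. The 3 red cell microRNAs summed to 74.1 CPM in pup 3, against 124 CPM in pup 1 and did not all go one way. Mir451a had 31.0 CPM in pup 3, against 86.4 CPM in pup 1 (log2 ratio -1.52), Mir144 had 29.1 CPM in pup 3, against 20.1 CPM in pup 1 (0.48, not called), and Mir486 had 14.1 CPM in pup 3, against 18.0 CPM in pup 1 (not tested). The 5 epithelial microRNAs of the miR-200 family summed to 594 CPM in pup 3, against 94.9 CPM in pup 1, and the Hox-linked Mir10a and Mir10b had log2 ratios of -0.30 and -0.36. Against 30.0% of tested genes called higher and 27.2% called lower in pup 3, 2 of 6 tested neuron-enriched hairpins were higher and 3 lower, and 3 of 3 tested epithelial hairpins were higher. Lower in pup 3 were 2 of 2 tested Hox-linked hairpins, 1 of 2 red cell hairpins, 1 of 2 mural hairpins and Mir126a. The part of these cells in the differences of Mir195a and Mir15b was not tested.

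Beyond the 6 members, 5 of which carry the seed AGCAGCA on their own hairpin, 6 further hairpins carry it in the RefSeq table. That table has 1738 mature entries. Of the further 6, 5 have a row in the count tables. Mir497, whose strand holds the reads used for Mir497b, has none. One of these 5 was detected, Mir322 on the X chromosome, the rodent counterpart of human miR-424.
miR-322-5p of Mir322 (chrX:53054306-53054327, minus strand): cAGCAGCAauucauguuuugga

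This arm differed from miR-15b-5p at 6 of 22 positions, from miR-15a-5p and miR-497a-5p at 7 each, from miR-16-5p at 10, and from miR-195a-5p at 10 of 21. The arms of the family differed from each other at 2 to 11 positions, so miR-322-5p was no farther from them than miR-16-5p was from miR-497a-5p. Mir322 had 7103 CPM in pup 3, against 6145 CPM in pup 1, 2.22-fold above Mir15a in pup 3 and 1.92-fold in pup 1. Among the counted hairpins with this seed, the highest count was thus outside the 6. Counts are per hairpin, not per arm, and exact miR-16-5p reads are in none of them. The order of the 5p arms themselves was not tested. Mir195b, on chromosome 2, had 1 count in pup 3 and 0 in pup 1. Mir6342, Mir6353 and Mir6419 had 0 counts in both pups, which leaves room for 0.938 CPM (3 counts) in pup 3 and for 1.28 CPM in pup 1.

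**Figure D5:**
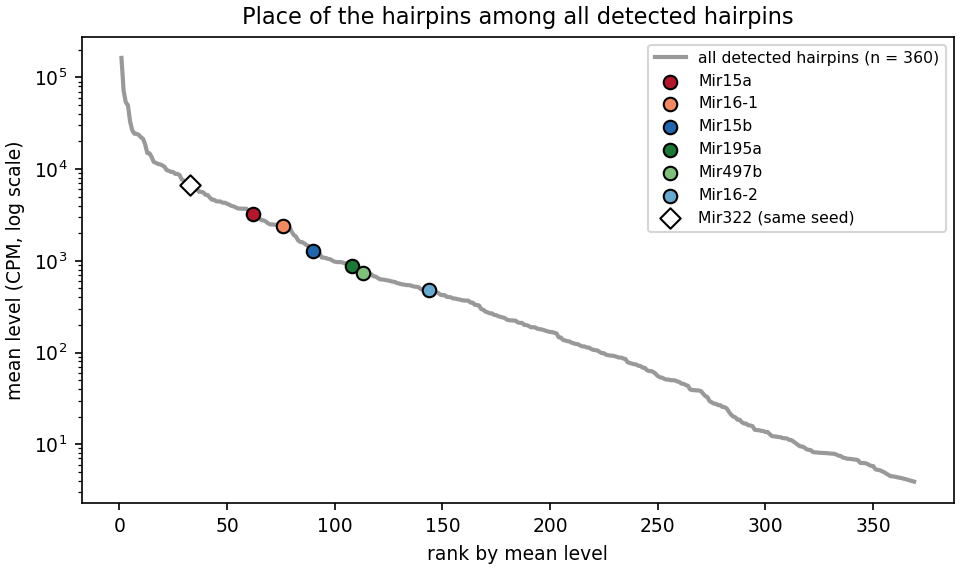
Mean level in CPM on a log axis against rank for all 360 detected hairpins (grey line), with the 6 hairpins in colour and Mir322, which has the same seed, as a white diamond. The 6 run from rank 62 (Mir15a) to rank 144 (Mir16-2), and Mir322 is at rank 33.

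Next to other hairpins known from cell division, the family lay between a pair of other clusters in the sum of counts that could be placed. Such sums leave out reads that map to several places, among them exact miR-16-5p reads. Mir19b-1 and Mir92-1 of the miR-17-92 cluster also have second copies. Mir450-1 and Mir450-2, the undetected hairpins of the Mir322 cluster, are numbered copies too. The sums are therefore not an order of the microRNAs themselves. The 6 hairpins summed to 9038 CPM in pup 3, against 8894 CPM in pup 1. The miR-17-92 cluster, which favours division of progenitors, summed to 16200 CPM in pup 3, against 14184 CPM in pup 1, led by Mir17 and Mir20a. The 7 hairpins of the Mir322 cluster, 5 of them detected, summed to 8068 CPM in pup 3, against 7309.7 CPM in pup 1, led by Mir322 and Mir351. In the test between pups, which 57.1% of all tested genes passed, 4 of 5 tested miR-17-92 hairpins passed (3 higher and 1 lower in pup 3), as did 2 of 5 in the Mir322 cluster (1 higher and 1 lower), beside 2 of the 6 members. Whether these lists differ from the family was not tested.

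Genes with the most similar values were found by distance in log2(CPM + 1) over the 2 libraries. For Mir15a they were Mir125b-1 (distance 0.07) and Mir20a (0.10), and for Mir16-1 Mir132 (0.04) and Mir370 (0.09). For Mir15b they were Mir188 (0.12) and Mir467d (0.23), and for Mir16-2 Mir410 (0.04) and Mir374b (0.05). For Mir195a they were Mir340 (0.10) and Mir330 (0.12), and for the reads opposite Mir497b Mir325 (0.09) and Mir338 (0.11). With 2 libraries this likeness is mainly one of level, and Mir125b-1 and Mir467d belong to groups of similar hairpins, so their own counts are uncertain.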

How the data were processed

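Small RNA of 2 newborn midbrains was sequenced, 1 library per pup. Per the deposited descriptions, raw read counts for each gene were made by the authors from mm10 alignments with GENCODE M4. The aligner and the counting program were not given in the sources used here. Every table lists 1973 genes, counted on either, own and opposite strand, and 4 rows that name no gene. They held 56.7% (pup 3) and 57.2% (pup 1) of all reads and were left out of totals.

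Symbols and positions are those of GENCODE M21 on GRCm38. Counts on genes are own-strand, with Mir497b by its opposite strand in the totals too. Ratios used TMM scaling (edgeR 4.0.16, R 4.3.3), exact binomial tests scipy 1.17.1. DESeq2 1.42.0 size factors and plain totals were alternatives. The test first recovered 2-fold changes in simulated counts that had counting error only and known totals. Smaller changes and a spread beyond counting error were not simulated, so this does not bear on the hairpins called here. Beside the members, the genes named were all detected hairpins with the family seed, the 2 nearest genes to each member, the 2 highest detected members of both comparison lists and the marker lists. The members and lists were chosen with earlier results of these data known.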

Additional observations from a re-analysis of the deposited data

How the results depend on the processing

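The share of all counts held by the 6 hairpins, 0.897%, was 0.867% with either-strand counts, 0.824% with Mir497b by its own strand and 1.07% with a total without the most abundant gene. Leaving out either pup gave 0.889 to 0.904%. Divided by hairpin length, Mir15a held 59.8% of its pair, Mir15b 79.9% and Mir195a 61.7%. The loci then held 61.2% (Dleu2), 24.2% (Smc4) and 14.7% (chromosome 11). For the reads opposite Mir497b this used the 125 bases of Mir497b. Mir497, on whose strand they lie, has 84 bases, and division by that length was not tried. The length-divided shares of Mir195a and of the loci therefore depend on this choice. With a single pup Mir15a held 57.3 to 57.4% of its pair, Mir15b 72.1 to 73.6% and Mir195a 53.6 to 56.0%. The loci then held 61.7 to 62.7%, 18.9 to 20.6% and 17.7 to 18.4%.

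All 6 hairpins were detected with a minimum of 1 or 100 counts and in either pup alone, and 5 with Mir497b by its own strand. Mir15b and Mir195a were the 2 called hairpins under every scaling and count minimum tried and with either-strand counts, while the share of all genes called was 44.5% with a mean count of at least 10 and 21.8% with no minimum. None of the 6 was called at 2-fold under any alternative, nor at 1.5-fold. With plain library totals the log2 ratio of Mir15a was 0.0025, in place of -0.05, and that of Mir16-1 was -0.0023, in place of -0.05. That of the reads opposite Mir497b was 0.039, in place of -0.01. No paired analysis was possible because the study has 1 group of 2 pups. Depth limits the ratio of Mir16-2 most, and with 2 libraries no difference between the pups has a replicate check.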
